A study of Bos taurus with 14 samples.

Results

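The miRNAs described here carry a number of 3000 or higher in their name, whatever their letter or arm, with bta-miR-6119-3p left out. The rule uses the name and no measured value, and 205 of the 1030 mature bovine miRNAs in the count table met the rule. The paper lists the omitted bta-miR-6119-3p among its differentially expressed miRNAs, so the counts of calls below do not cover it. Small RNA of peripheral white blood cells (PWBC) was sequenced from 14 Angus-Simmental crossbred heifers, 1 library per heifer, with blood drawn at weaning and before any breeding. The 7 fertile heifers (FH) later became pregnant to artificial insemination, and the 7 subfertile heifers (SFH) became pregnant neither to insemination nor in the natural service season that followed it. The groups were named from this later outcome, all heifers shared breed and sampling point, and the labels name neither a treatment nor a preparation batch. The comparison asks whether these miRNAs differed in PWBC before breeding between heifers with the 2 outcomes.

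A miRNA is cut from a hairpin precursor, and either strand of the hairpin's stem can become the mature miRNA. The strand from the 5′ side is named 5p and the one from the 3′ side 3p. The mature strand guides an Argonaute protein to messenger RNAs that pair with its seed, near its 5′ end, and these are then translated less or degraded. miRBase numbers miRNAs roughly in the order of their deposition, so low numbers hold many deeply conserved families and high numbers mostly later entries, often of 1 species or 1 lineage. Many such hairpins lie within a gene that codes for a protein and are transcribed with it.

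Library totals over all mature names ran from 1754971 to 5468341, with a median of 3319368 in FH and 2663375 in SFH. Levels below are CPM, with each heifer's counts scaled by its total on all mature names. They are not scaled by length, since mature miRNAs are of nearly equal length. A count of 0 allows up to 3 counts, which is 0.549 to 1.71 CPM depending on the heifer, for counting error only. The 9 leukocyte marker miRNAs (among them miR-142, miR-223 and miR-150) summed to 96624 to 161751 CPM in FH and 89504 to 187243 CPM in SFH, so the defining markers of the labelled cell type were present. The erythroid markers summed to 1574 to 3712 CPM in FH and 1462 to 9234 CPM in SFH, with miR-144 listed at 0. Platelet and endothelial miR-126 summed to 22.4 to 68.3 CPM in FH and 4.52 to 46.9 CPM in SFH, muscle markers to 0 to 85.6 and 0.650 to 275 CPM, the liver marker miR-122 to at most 4.65 and 2.30 CPM, and epithelial markers to 149 to 249 and 55.9 to 235 CPM. No marker that was abundant enough to be tested had an edgeR p-value of at most 0.05. All 9 leukocyte markers were tested, and 2 of 3 erythroid, both miR-126 arms, 1 of 3 muscle, 0 of 1 liver and 1 of 5 epithelial markers. The levels of these lists overlapped between groups, and the part of these cell types in the values below was not tested. In bulk PWBC, fewer cells of a type and less RNA per cell cannot be told apart.

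Some names did not have counts of their own. Both arms of bta-miR-10174 held exactly the counts of the older bta-miR-23b in each of the 14 heifers, 483770 in all for the 3p arms and 260 for the 5p arms. The same reads were therefore listed under both names, and the level of bta-miR-10174 cannot be told apart from that of miR-23b, an abundant miRNA conserved in vertebrates. These reads also enter the library totals under both names. Results below that rest on bta-miR-10174 are given with and without it. Among the other names, bta-miR-11975 and bta-miR-11976 shared 1 set of 192 counts, and 9 names with 1 to 43 counts in 1 heifer each had the same count as some other name. None of these 11 was tested.

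Some libraries had more counts of 0 than the rest. The 4 heifers with most of the 341 tested miRNAs at 0 were heifers 29, 20 and 22 (FH) with 70, 60 and 46, and heifer 30 (SFH) with 56. Leaving out these 4 was added as an alternative after the data were seen, and it leaves 4 FH and 6 SFH.

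Detection was lower than among all other names together, but close to that of the names numbered from 2000 to below 3000. Of the 205 names, 105 had at least 1 count in some heifer and 100 had none. The share with a count was 51.2%, against 61.7% of the 825 other names. Counts in all 14 heifers were found for 16 names (7.80%), against 23.9% of the other names. The 413 names numbered from 2000 to below 3000 were found about as widely, with a count for 53% and counts in all heifers for 6.78%. Without the large ruminant families miR-2284 and miR-2285 they were 265 names, of which 42.3% had a count and 3.02% had counts in all heifers. Between the extremes, 20 names were counted in 1 heifer alone, 11 in 2 heifers and 13 in 4, and 8 names missed 1 heifer only.

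**Figure D1:**
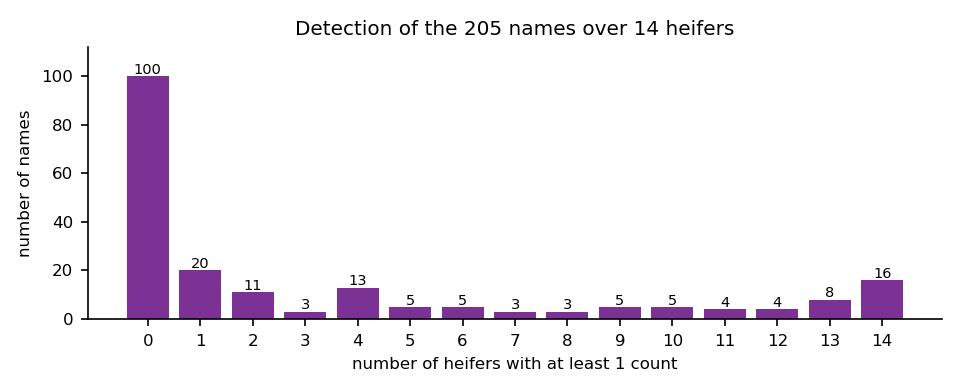
The bars give the number of miRNAs numbered 3000 and above (y axis) that had at least 1 count in a given number of heifers (x axis, 0 to 14). The tallest bar is at 0 heifers (100 names), and 16 names stand at all 14.

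The number of these miRNAs detected in a heifer ran from 29 to 65. In FH the lowest, median and highest heifers had 29, 42 and 65 names, and in SFH 43, 56 and 63. The mean was 46.4 ± 13.3 (SD, n = 7) in FH and 56.1 ± 7.11 (n = 7) in SFH. The groups overlapped, since the FH range enclosed the SFH range. Heifer 20 (FH) had the fewest names and heifer 27 (FH) the most. After every library was thinned to 1754971 counts the means were 45.4 ± 12.7 in FH and 55.6 ± 7.30 in SFH, so the difference in means remained at equal depth. Without the 4 heifers with most counts of 0, which were picked on a related measure, the means were 55.2 ± 9.64 and 58.3 ± 4.50. Over all names, the number detected was 348 ± 45.2 in FH and 383 ± 34.1 in SFH, so the same direction was seen in the whole table. No test was made on these numbers, which are a score over chosen names.

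Among the names with a count, 24 were counted in 1 group alone. They include the 20 names counted in a single heifer, which are in 1 group by definition. The 9 names in 1 heifer that had the same count as some other name are also among them. The share counted in 1 group was not taken over the other names of the table. There were 7 in FH, each in 1 heifer, and 17 in SFH, of which 13 were in 1 heifer. SFH heifers also had more names detected over the whole table (383 ± 34.1 against 348 ± 45.2 in FH). The part of that in this split was not tested. The SFH names found in the most heifers were bta-miR-11985, bta-miR-12023 and bta-miR-3533, each in 4 of 7. None of the 24 was abundant enough to be tested, so their one-sided detection stands without a test.

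Abundance rested on 1 name, bta-miR-10174-3p, whose counts are those of miR-23b-3p. Together the 205 names took 1.37% of all counts (0.855% to 1.77% per heifer). Their summed level was 8981, 13232 and 17663 CPM in the lowest, median and highest FH, and 8546, 14494 and 17168 CPM in SFH. The means were 13753 ± 3290 CPM (SD, n = 7) and 13842 ± 3179 CPM (n = 7), and the ranges lay almost on top of each other. The highest sum was in heifer 20, which had the fewest names detected, and the lowest in heifer 30 (SFH). bta-miR-10174-3p made up 81.6% ± 3.55 of the sum in FH and 81.2% ± 3.78 in SFH. Without both arms of bta-miR-10174, the other 203 names took 0.245% of all counts (0.196% to 0.316% per heifer). Their sum was 2116, 2400.0 and 2867 CPM in FH and 1965, 2595 and 3156 CPM in SFH. The means were then 2435 ± 289 and 2513 ± 374 CPM, with heifer 28 (SFH) lowest and heifer 23 (SFH) highest. The most abundant of the 203 was bta-miR-6119-5p, with 21.0% of their counts.

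**Figure D2:**
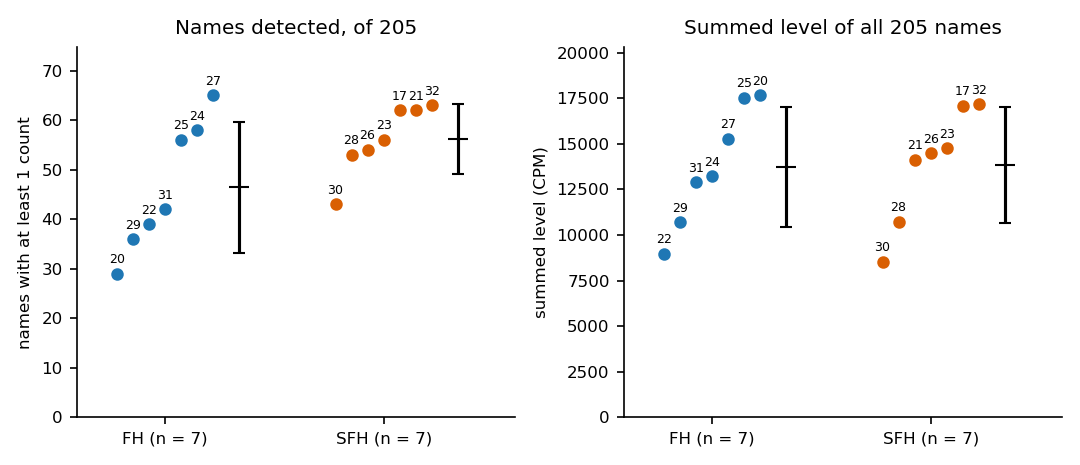
Each point is 1 heifer, labelled by its number, with the mean and SD of each group beside the points; the left panel gives names detected and the right panel summed level (CPM). Heifer 20 has the fewest names (29) and the highest sum (17663 CPM, most of it the counts shared with miR-23b-3p), and FH and SFH overlap in both panels.

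The classes of numbers held unequal parts of this sum. The 32 names from 10000 to below 11000, which include bta-miR-10174, summed to 11458 ± 3140 CPM in FH and 11543 ± 2894 in SFH. Without bta-miR-10174 this class summed to 139 ± 75.1 and 214 ± 96.4 CPM. The 34 names from 6000 to below 7000, the highest class without miR-10174, summed to 1419 ± 193 and 1452 ± 308 CPM. The 97 names from 11000 upward, the most numerous and the last numbered, summed to 325 ± 84.3 and 396 ± 135 CPM, and 45 of them had a count. The 16 names from 7000 to below 10000 summed to 241 ± 73.2 and 206 ± 56.6 CPM, and the 20 from 3000 to below 4000 to 175 ± 50.8 and 161 ± 45.1 CPM. The 6 names from 4000 to below 6000 gave 134 ± 61.7 and 84.0 ± 28.5 CPM. In every class the difference between group means was smaller than the larger of the 2 group SDs.

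A miRNA was tested where it reached 1 CPM in at least 7 of the 14 heifers. This left 341 miRNAs, of which 47 carried a number of 3000 or higher, 22.9% of the 205. Their median level was 13.5 CPM, against 99.4 CPM for the other tested miRNAs and 14.2 CPM for the 74 tested names numbered from 2000 to below 3000. It was also 13.5 CPM for the 45 without bta-miR-10174. None of the 47 reached 1 CPM in all 7 heifers of 1 group and in 0 of the other, and 15 reached 1 CPM in every heifer. A name could still meet the limit through 1 group, as bta-miR-10172-5p did with 7 SFH heifers beside 3 FH. Just inside the limit were bta-miR-10175-5p and bta-miR-7180, with means of 3.64 and 3.96 CPM and at least 1 CPM in 7 heifers each. Just outside were bta-miR-11979 and bta-miR-11975, with means of 6.34 and 5.86 CPM and at least 1 CPM in 6 heifers each. The 58 names with counts that were not tested had totals of 1 to 239 counts in 1 to 7 heifers, with a median of 2 heifers. Below the 20 most abundant, the other 27 tested miRNAs had means of 2.40 to 16.3 CPM (median 8.56) and counts in 7 to 13 heifers, so each was at 0 in at least 1 heifer.

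Of the 47 tested, 0 passed both thresholds for SFH relative to FH, a p-value up to 0.05 and a log2 fold change of 0.5 or more in either direction (edgeR quasi-likelihood test). Over all 341 miRNAs 3.81% passed, 1.47% higher and 2.35% lower in SFH. At a p-value of at most 0.05 with any fold change the count was also 0 of 47, beside 5.87% of all. The exact permutation test over heifers gave 1 of 47, bta-miR-10172-5p, beside 6.16% of all. DESeq2 called 0 of the 47, a count that stands without its share over all 341. limma-voom called 2, and it also called more than edgeR over all miRNAs (counts in the last section). The edgeR count was 0 of 45 without bta-miR-10174, and 0 of 47 without the 4 heifers with most counts of 0. These counts also stand without a share over all miRNAs in the same setting. No adjusted p-value of any of the 341 reached 0.05, and the lowest among the 47 was 0.890 (edgeR, Benjamini-Hochberg). No miRNA of either set had groups that did not overlap, a share of 0% of all tested. The log2 fold change was above 0 for 28 and below 0 for 19, with a median of 0.24 beside 0.06 over all tested. It was at least 0.5 in size for 17 of 47 (36.2%) beside 31.1% of all. The median standard error was 1.06 for the 47 and 0.48 for all, so a change had to be larger here to be called.

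**Figure D3:**
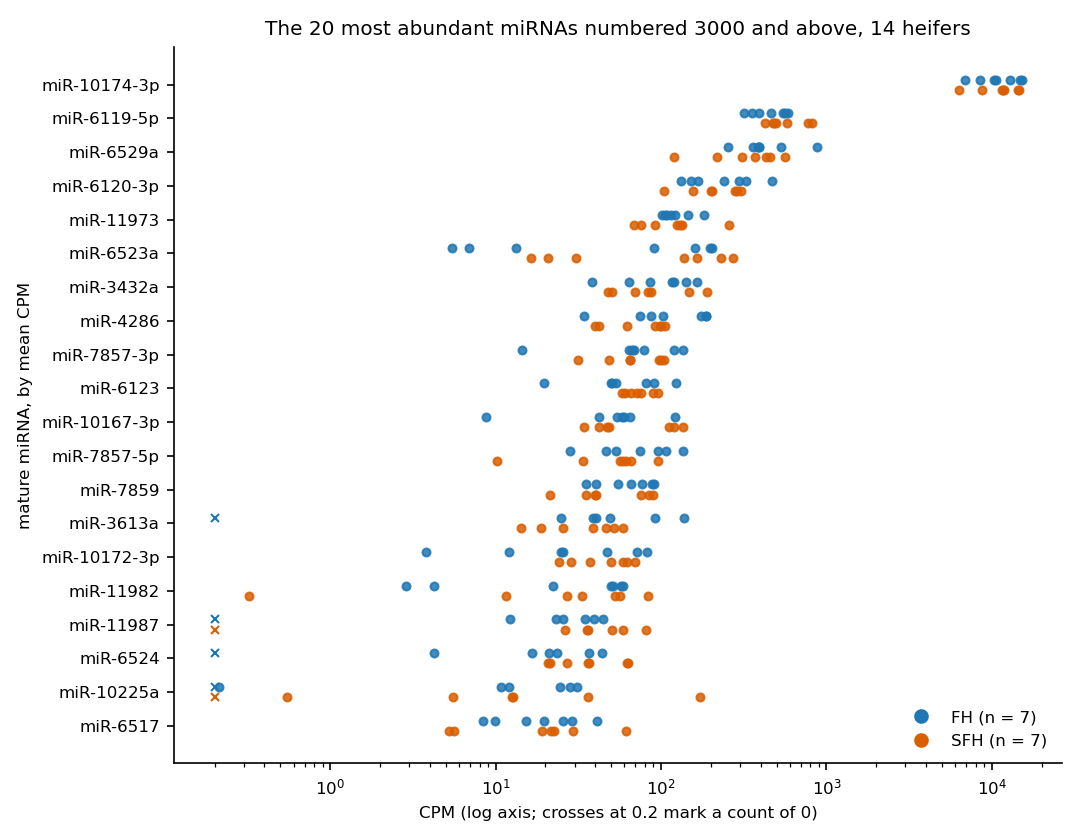
Each point is the level (CPM, log x axis) of 1 of the 20 most abundant miRNAs numbered 3000 and above in 1 heifer, with FH and SFH in different colours and crosses at 0.2 for a count of 0. bta-miR-10174-3p, whose counts are those of miR-23b-3p, lies far above the rest in all 14 heifers, and the groups overlap in each of the 20.

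The counts listed for both bta-miR-10174-3p and miR-23b-3p ranked 22 among all names in mean level. They were at 6866, 10657 and 15143 CPM in the lowest, median and highest FH, and at 6326, 11654 and 14549 CPM in SFH. Every heifer was within a 2.39-fold range, with heifer 20 highest and heifer 30 lowest. The means were 11313 ± 3112 and 11322 ± 2955 CPM (SD, n = 7 each), and the log2 fold change was -0.08 (SE 0.20, edgeR adjusted p = 0.977).

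bta-miR-6119-5p, at rank 89, was the most abundant of the names with counts of their own. Its hairpin lies in RPL39, a gene of the large ribosomal subunit. Its levels were 319, 465 and 587 CPM in FH and 422, 498 and 819.5 CPM in SFH. Most SFH heifers were inside the FH range, and the highest was heifer 23 (SFH). The log2 fold change was 0.25 (SE 0.23, edgeR adjusted p = 0.947).

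bta-miR-6529a, in GSK3B, which encodes a kinase of the Wnt and insulin pathways, was at 255, 390.3 and 874 CPM in FH and 119, 368 and 563 CPM in SFH. The lowest heifer was 30 and the highest 25, at opposite ends of a 7.32-fold range. Its log2 fold change was -0.47 (SE 0.32, edgeR adjusted p = 0.898). bta-miR-6120-3p, in the casein kinase gene CSNK1G2, had means of 254 ± 119 CPM in FH and 219 ± 74.6 in SFH. bta-miR-11973, in the sodium, potassium and calcium exchanger gene SLC24A3, had means of 125 ± 28.4 and 126 ± 64.0 CPM. Both groups overlapped for each, and the log2 fold changes were -0.27 (SE 0.30) and -0.07 (SE 0.31).

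bta-miR-4286 had the lowest adjusted p of the 47 and an unadjusted p just outside the threshold. One of its hairpins lies in STARD3, which encodes a cholesterol transport protein. Its levels were 34.2, 102 and 188 CPM in FH and 40.2, 91.4 and 106 CPM in SFH. Both the lowest and the highest heifers were FH, heifers 24 and 25, while the SFH heifers lay between them. The log2 fold change was -0.76 (SE 0.41, edgeR p = 0.0770, adjusted p = 0.890), and the exact permutation p was 0.175. Without heifer 24, which leaves 6 FH, it was -0.92 with p = 0.0226 in the same edgeR fit over all miRNAs, not an exact test. Without the 4 heifers with most counts of 0 it was -0.27.

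bta-miR-6523a was at 5.47, 91.1 and 203 CPM in FH and at 16.4, 138 and 272 CPM in SFH. Its hairpin lies in EPG5, a gene of autophagy. The 14 heifers formed a higher set of 8 (91.1 to 272 CPM) and a lower set of 6 (5.47 to 30.4 CPM), with a gap of 1.61 on the log2 scale between them. The higher set held 4 FH and 4 SFH heifers. Among the 213 miRNAs counted in all heifers this was the second largest gap with at least 3 heifers on each side. Gaps that set apart fewer heifers were not compared. The log2 fold change between groups was 0.30 (SE 0.75, edgeR adjusted p = 0.977).

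A further 6 of the 20 most abundant are given by mean or range. bta-miR-3432a, with hairpins in TP53BP1 and HIP1, averaged 104 ± 44.3 CPM in FH and 96.3 ± 52.9 in SFH. bta-miR-6123 averaged 66.8 ± 33.7 and 73.7 ± 14.1 CPM, and bta-miR-7859, in PTGR2, which encodes a prostaglandin reductase, 64.5 ± 21.9 and 55.3 ± 27.2. bta-miR-10167-3p, in a gene of the bovine major histocompatibility complex, ranged over 8.76 to 121 CPM in FH and 34.1 to 135 in SFH. bta-miR-11982, in LYST, a regulator of lysosome traffic, ranged over 2.89 to 58.7 and 0.325 to 83.0 CPM. bta-miR-6517, in DNAAF2, averaged 21.3 ± 11.6 and 23.6 ± 19.1 CPM. The groups overlapped for all of them, and their log2 fold changes lay between -0.31 and 0.33.

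Some of the 20 had a count of 0 in 1 or 2 heifers and clear counts in all the others. bta-miR-3613a had 0 counts in heifer 20 (FH), and at least 14.1 CPM in each of the other heifers. bta-miR-11987 had 0 in heifers 20 and 30 and at least 12.3 CPM elsewhere. bta-miR-6524, in PDCD4, which encodes an inhibitor of translation, had 0 in heifer 20 and at least 4.23 CPM elsewhere. The group means of bta-miR-3613a were 54.9 ± 46.2 CPM in FH and 36.4 ± 17.2 in SFH (log2 fold change -0.64, SE 0.71). Those of bta-miR-11987 were 25.7 ± 15.7 and 41.1 ± 25.6 CPM (0.57, SE 0.88), and those of bta-miR-6524 20.8 ± 15.8 and 38.2 ± 17.9 CPM (0.78, SE 0.74). The lowest heifer was heifer 20 in all 3, so its 0 enters each FH mean. In heifer 20, 19 of the 47 tested were at 0, and 60 of all 341 tested. The most of all tested at 0 were in heifer 29, with 70. Heifers 22, 29 and 31, which are FH as well, had 14, 13 and 12 of the 47 at 0, while the other FH heifers, 24, 25 and 27, had 2, 3 and 3. In SFH heifers 26 and 30 had 10 each, heifer 23 had 7, and heifer 21 had 1, the fewest of all. The groups overlapped, with a median of 12 in FH and 5 in SFH. With heifer 20 left out, no miRNA of the 47 passed the thresholds.

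The 3 largest positive fold changes belonged to low-abundance names. bta-miR-10175-3p, whose hairpin lies in PTGS1, the gene of cyclooxygenase-1, had counts in 3 of 7 FH (highest 8.03 CPM) and 6 of 7 SFH (median 3.82, highest 25.2 CPM). Its log2 fold change was 1.91 (SE 1.40, edgeR adjusted p = 0.947, exact permutation p = 0.0682). bta-miR-11997 had counts in 3 of 7 FH (highest 11.5 CPM) and 6 of 7 SFH (median 8.26, highest 13.6 CPM), with a log2 fold change of 1.50 (SE 1.37, exact permutation p = 0.0589). With 1 heifer left out, the first ran from 1.23 (without heifer 23) to 3.05 (without heifer 25), and the other from 1.26 (without heifer 29) to 2.59 (without heifer 22). Groups overlapped in both, since the highest FH was above the SFH median.

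bta-miR-10172-5p, whose hairpin lies in BEGAIN beside the imprinted gene DLK1, was the third. In FH it had counts in 3 of 7 heifers, with 34.9 CPM the highest, and in SFH in 7 of 7, from 3.57 to 45 CPM with a median of 16.9. Its SFH heifers alone met the limit for testing, which its FH heifers alone would not have met. The means were 7.68 ± 12.8 and 21.2 ± 15.3 CPM (SD, n = 7 each). The log2 fold change was 1.45 (SE 1.22, edgeR adjusted p = 0.947), and the exact two-sided permutation p was 0.0303 (0.544 adjusted over all tested). The log2 fold change ran from 1.13 without heifer 30 to 2.70 without heifer 31, and was 0.32 without the 4 heifers with most counts of 0.

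The 3 lowest log2 fold changes were -1.04 (SE 1.39) for bta-miR-7860, -0.78 (SE 1.07) for bta-miR-6775 and -0.76 for bta-miR-4286. bta-miR-7860, in COG3, a Golgi gene, had counts in 5 of 7 FH and 4 of 7 SFH, and bta-miR-6775 in 7 of 7 and 5 of 7. Their means were 7.68 ± 9.02 and 3.8 ± 7.17 CPM for bta-miR-7860, and 13.2 ± 12.6 and 7.96 ± 8.13 CPM for bta-miR-6775. With 1 heifer left out, the log2 fold change of bta-miR-7860 ran from -2.85 (without heifer 28) to -0.36 (without heifer 31), and that of bta-miR-6775 from -1.30 (without heifer 17) to -0.26 (without heifer 25). In both the SD was as large as the difference between the means or larger. bta-miR-10225a had a log2 fold change of 1.07 (SE 1.17), and heifer 30 (SFH) was at 171 CPM with the next SFH at 36.4. Without heifer 30 it was -0.57. bta-miR-11972 had a log2 fold change of 0.86 (SE 1.42), and heifer 32 (SFH) was at 85.7 CPM with the next SFH at 20.7. Without heifer 32 it was -0.84.

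The spread over heifers was wide, and it went with low abundance. The median SD of log2(TMM-normalized CPM + 0.5) over the 14 heifers was 1.90 for the 47 and 0.789 for the other tested miRNAs. Within bands of mean level the medians were closer. Under 10 CPM they were 2.09 (17 miRNAs) and 1.98 (57), from 10 to 100 CPM 1.66 (23) and 1.63 (90), and above 100 CPM 0.572 (7) and 0.457 (147). A 0 in at least 1 heifer was found in 31 of 47 (66.0%), against 33.0% of the other tested. From 10 to 100 CPM the shares were 60.9% and 47.8%. The median of the 45 without bta-miR-10174 was also 1.90. The smallest spreads were in bta-miR-10174-3p (0.39, on the counts of miR-23b-3p), bta-miR-6119-5p (0.40) and bta-miR-11973 (0.47). The largest were in bta-miR-10225a (2.63), bta-miR-11972 (2.57) and bta-miR-10172-5p (2.51). The 7 above 100 CPM had log2 fold changes of -0.47 to 0.30, and the 40 below it -1.04 to 1.91.

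**Figure D4:**
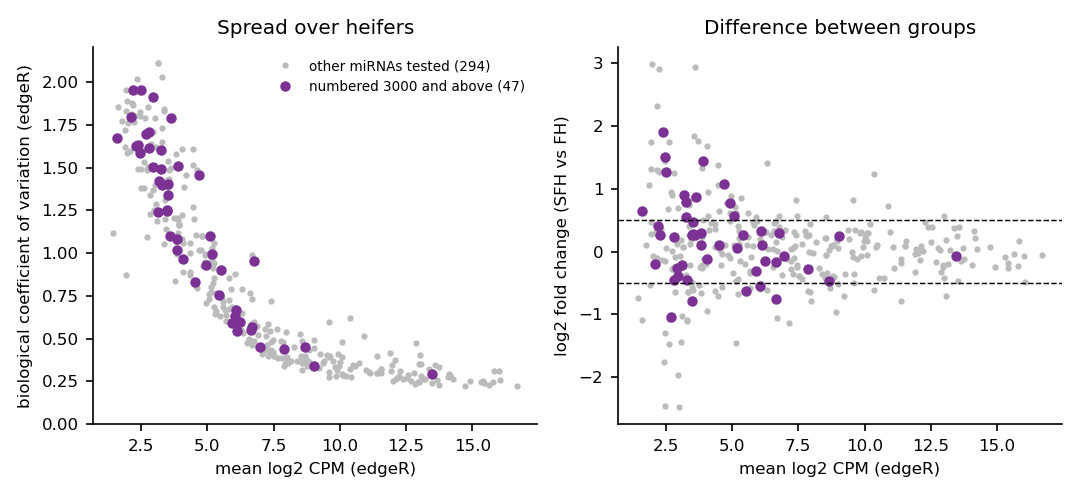
The left panel plots edgeR's biological coefficient of variation and the right panel the log2 fold change (SFH vs FH, dashed lines at 0.5 and -0.5) against mean log2 CPM, for the 47 miRNAs numbered 3000 and above and the 294 other tested miRNAs. Both measures widen toward low levels in both sets, and the median coefficient was 1.24 for the 47 and 0.585 for the others.

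Arm use was compared where a hairpin had both arms in the table and at least 10 counts together. Of 46 such pairs in the whole table, 5 belonged to these miRNAs, and in all 5 the 3p arm had the larger total. The pairs bta-miR-10174 and miR-23b hold the same counts, so 45 of the 46 pairs are distinct, and 4 of the 5 have counts of their own. Of the 8 pairs named among the 205, 3 had no counts. A further 22 names carried an arm suffix without the partner arm among the 205. One of them was bta-miR-6119-5p, which took 70.1% of the counts of its hairpin, from 47.3% in heifer 22 (exact 95% interval 45.1 to 49.4) to 85.2% in heifer 23 (83.9 to 86.5). This pair is among the 46 but not the 5, since its 3p arm was left out. Its mean log2 ratio of 5p to 3p was 0.878 ± 0.761 in FH and 1.63 ± 0.594 in SFH. The difference did not pass the threshold (exact permutation p = 0.0589, 0.634 adjusted over 46 pairs).

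The counts shared by bta-miR-10174 and miR-23b were nearly all on 1 arm, with 260 on 5p and 483770 on 3p, a 5p share of 0.0537%. bta-miR-6120 had 2 counts on 5p and 9881 on 3p (0.0202%), with a 5p count in heifer 27 alone. The 5p arm of bta-miR-10174 was counted in 4 of 7 FH and 5 of 7 SFH, at 22.2 CPM at most, while its 3p arm was at 6326 CPM or above in every heifer. bta-miR-7857 was the other extreme, with 5p at 46.7% of the total. Its 3p arm was at 14.4, 68.7 and 137 CPM in FH and 31.5, 65.0 and 104 CPM in SFH. Its 5p arm was at 28.3, 74.9 and 136 CPM in FH and 10.3, 59.1 and 96.1 CPM in SFH. The heifers that were lowest for the arms differed, heifer 29 for 3p and heifer 17 for 5p. The log2 fold changes were -0.14 (SE 0.42) for 3p and -0.55 (SE 0.46) for 5p. Its 5p share ran from 17.4% (exact 95% interval 11 to 25.6) in heifer 17 to 76.4% (70.9 to 81.3) in heifer 29. These intervals cover counting error only, and the 2 heifers are the extremes of 14. The difference of the log2 ratio between groups did not pass the threshold (exact permutation p = 0.281). bta-miR-10175 had 43.2% on 5p in total, and from 0 to 100% in single heifers at few counts (exact permutation p = 0.232). In that test heifers 20, 22 and 31 (FH), with no count on either arm, entered at a log2 ratio of 0, as if both arms were equal. The p-value therefore does not measure arm use in these heifers.

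bta-miR-10172 was the one pair of 46 (2.17%) with an exact permutation p of at most 0.05 for the log2 ratio of 5p to 3p. The mean log2 ratio was -4.54 ± 2.80 (SD, n = 7) in FH and -1.42 ± 0.872 (n = 7) in SFH, a difference of 3.13 (exact two-sided permutation p = 0.0163, 0.634 adjusted over 46 pairs). The ratio was taken after 0.5 was added to each arm. In a heifer with 0 counts on 5p it is set by this 0.5 and the 3p count. The size of the FH mean and of the difference therefore depends on the 0.5. In FH heifers 20, 22, 25 and 29 had 0 counts on 5p beside 107, 22, 117 and 17 on 3p. Beside these a 0 allows a 5p share of up to 2.80%, 13.6%, 2.56% and 17.6%, so the zeros of heifers 22 and 29 do not set them below the lowest SFH shares. Heifers 24, 27 and 31 had 17, 50 and 116 counts on 5p, which are shares of 27.4% (exact 95% interval 16.9 to 40.2), 10.02% (7.53 to 13) and 32.8% (27.9 to 37.9). In SFH the 5p share ran from 12.9% (exact 95% interval 6.64 to 22.0) in heifer 28 to 43.4% (38.6 to 48.4) in heifer 30. Heifers 24 and 31 lay within the SFH range. The observed shares of the other 5 FH heifers were below the lowest SFH share, that of heifer 28. Only for heifers 20 and 25 did this exceed counting error, since the interval of heifer 27 overlaps that of heifer 28. Heifers 20, 22 and 29 are also the FH heifers with most tested miRNAs at 0 in general, and the part of that in the arm difference was not tested. Without the 4 heifers with most counts of 0 the difference was 1.77 and no longer passed the threshold (exact permutation p = 0.181, 4 FH and 6 SFH). Leaving out each heifer in turn gave differences of 2.57 to 3.71. The 3p arm alone was at 3.77, 25.6 and 82.1 CPM in FH and 24.0, 49.6 and 70.1 CPM in SFH, with a log2 fold change of 0.27 (SE 0.56).

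**Figure D5:**
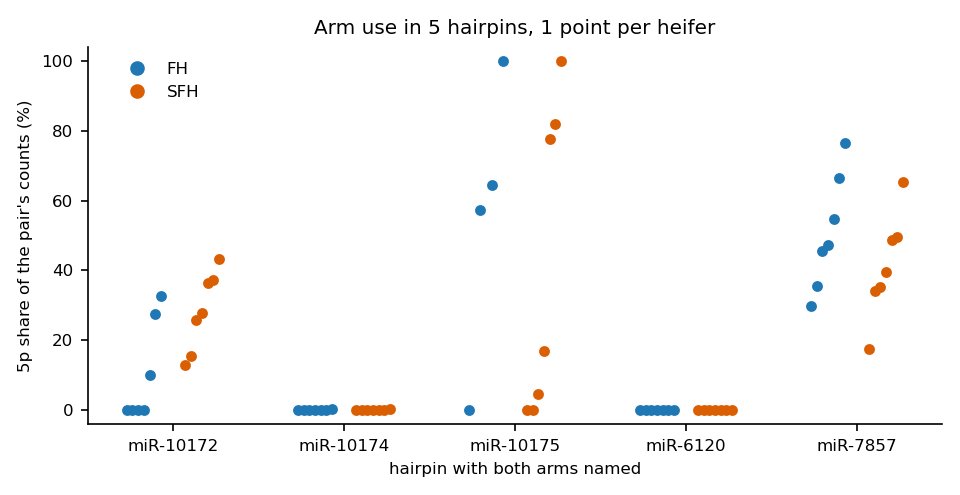
Each point is the 5p share (%) of a pair's counts in 1 heifer, FH beside SFH, for the 5 pairs of miRNAs numbered 3000 and above (the counts of bta-miR-10174 are also those of miR-23b); heifers with no count on either arm are left out. In bta-miR-10172 the points of 4 FH heifers lie at 0, those of heifers 22 and 29 on too few counts to place them below all SFH heifers. bta-miR-10174 and bta-miR-6120 lie near 0 throughout, and bta-miR-7857 runs from 17.4% to 76.4%.

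The position of the hairpins was read from gene symbols in RefSeq (assembly ARS-UCD2.0, another than the ARS-UCD1.2 the counts were mapped to), so names only are given. Of the 105 names with a count, 98 matched a RefSeq miRNA gene, and of the 47 tested, 43. Of these 43, 34 overlapped a protein-coding gene (79.1%), against 183 of 289 other tested miRNAs (63.3%). bta-miR-11998 lies in ZEB1, a transcription factor gene, and bta-miR-7861 in CELF2, an RNA-binding protein gene. bta-miR-3431 shares GABRE with miR-224 and miR-452. miR-224 was at 24.4 to 114 CPM and miR-452 at 0 to 16.5 CPM. The 7857 hairpins lie close together between H2BC13 and ZNF184.

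Lettered partners of some of the 47 were looked up after their values were seen. miR-3613b, miR-6523b and miR-6529b, whose genes overlap those of the lettered a forms, had 0 counts in all 14 heifers. bta-miR-3432b had 63 counts in all. Whether the counts of the a forms include reads of the b forms was not tested.

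Of the 205 names, 10 had several precursor entries, and the one with most counts was used. The entries of bta-miR-4286 held 4488 and 3897 counts, those of bta-miR-3432a 4215 and 3912, and those of bta-miR-7857-5p 2825 and 2548.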

How the data were processed

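Small RNA libraries of PWBC from 14 heifers were analysed, 1 per heifer and 7 per group, grouped by the labels. The authors trimmed adapters and end bases with Cutadapt, mapped and counted reads with miRDeep2 against ARS-UCD1.2 and miRBase, and deposited unnormalized counts for each pair of mature miRNA and precursor. A second deposited file holds CPM, which the authors made with edgeR 3.28.1, for the 341 miRNAs tested here. These deposited CPM values are scaled by the total over the 341 miRNAs and differed from the same values recomputed from the counts by at most 4.66e-10.

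For each mature name the precursor entry with most counts was used. The filter was 1 CPM in at least 7 heifers. Counts were normalized by TMM and fitted over all 341 miRNAs with edgeR 4.0.16 (R 4.3.3, quasi-likelihood test, group as the only term). Single values were also compared by exact two-sided permutation over all 3432 arrangements. DESeq2 1.42.0 and limma 3.58.1 were alternatives, beside other scalings, filters and leaving out each heifer. The edgeR fit was also run on counts simulated with dispersions estimated from these data. Such counts cannot check the fit against departures from its own model. The miRNAs named with values were the 20 most abundant of those tested, the 3 with the highest and lowest fold change, those at the ends of the spread and at the filter limit, and both arms of each tested pair. The leaving out of the 4 heifers with most counts of 0 and of bta-miR-10174 was chosen after seeing the data. The rule for members uses names alone, but members and lists were chosen with earlier results of these data known. Intervals cover counting error only, since PCR copies cannot be told from molecules in these counts.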

Additional observations from a re-analysis of the deposited data

Results flagged for a closer look

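Among the named miRNAs, 11 of 64 groups of 7 heifers (17.2%) had 1 heifer farther from its neighbour than Dixon's 95% limit allows. The share was 17.0% over the 47 tested and 14.1% over all 341. The limit would flag about 5% of groups if values were normally distributed. That share is not a chance rate for these CPM, many of which are 0. A group with a count in 1 heifer only, as for bta-miR-6120-5p, is flagged whatever its level. In SFH, bta-miR-11973 was at 259 CPM in heifer 17 (next 135), bta-miR-10225a at 171 CPM in heifer 30 (next 36.4), bta-miR-6517 at 61.8 CPM in heifer 26 (next 29.4), bta-miR-7860 at 19.8 CPM in heifer 28 (next 3.08), bta-miR-11972 at 85.7 CPM in heifer 32 (next 20.7) and bta-miR-11975 at 41.5 CPM in heifer 32 (next 11.5). In FH, bta-miR-11997 was at 11.5 CPM in heifer 22 (next 4.65), bta-miR-10172-5p at 34.9 CPM (next 9.69) and bta-miR-7860 at 26.2 CPM (next 10.3) in heifer 31, bta-miR-11979 at 38.9 CPM in heifer 22 (next 3.77), and bta-miR-6120-5p at 0.366 CPM in heifer 27 with 0 in the others. Every flagged value was the highest of its group.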

How the results depend on the processing

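The count of 0 of 47 past the thresholds held with DESeq2, with the other scalings and with stricter filters. It was 2 with limma-voom (bta-miR-10172-5p and bta-miR-11997), 1 with every precursor entry kept (bta-miR-4286) and 1 with log2 total count as a covariate (bta-miR-10175-3p). With no filter it was 20 of 105, of which 19 were counted in 1 group only and 15 in 1 heifer only. None of these 20 was among the 47. Leaving out each heifer gave 0 to 1, with bta-miR-4286 passing without heifer 24 (FH). Over all miRNAs 13 became 23 with limma-voom, 126 of 614 with no filter and 20 with every entry, and 11 to 22 without single heifers. For the other settings, DESeq2 and the covariate among them, no count over all miRNAs is set beside that of the 47.

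The summed level without bta-miR-10174-3p was 2440 CPM in FH and 2520 in SFH, and 2435 and 2513 without both of its arms, whose counts are those of miR-23b (an alternative added after the data were seen). The median spread of 1.90 was 1.23 with a pseudocount of 2 (0.751 for the other miRNAs) and 0.807 as a median absolute deviation (0.446).

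Of 29 named and tested miRNAs, 17 kept the sign of their fold change when any 1 heifer was left out and 12 did not. These ran from -0.18 to 0.022 for bta-miR-10174-3p, -0.45 to 0.94 for bta-miR-10174-5p, -0.62 to 0.35 for bta-miR-10175-5p, -0.57 to 1.37 for bta-miR-10225a, -0.84 to 1.27 for bta-miR-11972, -0.34 to 0.040 for bta-miR-11973, -0.26 to 0.28 for bta-miR-11982, -0.051 to 0.31 for bta-miR-6123, -0.38 to 0.33 for bta-miR-6517, -0.010 to 0.57 for bta-miR-6523a, -0.087 to 1.24 for bta-miR-7180 and -0.34 to 0.037 for bta-miR-7857-3p. The arm difference of bta-miR-6120 ran from -0.079 to 0.193.

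Other settings that turned a sign gave 0.0013 for bta-miR-10174-3p and 0.011 for bta-miR-11973 with library totals, and 0.022 for bta-miR-11973 with upper quartile scaling. limma-voom gave 0.50 for bta-miR-10175-5p, -0.17 for bta-miR-11982, -0.14 for bta-miR-11987, 0.13 for bta-miR-3613a, -0.19 for bta-miR-6517 and 0.029 for bta-miR-7857-3p. Mean log2 values gave 0.32 for bta-miR-10175-5p, -0.026 for bta-miR-11972, -0.13 for bta-miR-11982, 0.17 for bta-miR-3613a and -0.15 for bta-miR-6517. The covariate gave -0.062 for bta-miR-11982, and keeping every entry -0.00044 for bta-miR-6517. Leaving out the 4 heifers with most counts of 0, also added later, gave -0.24 for bta-miR-10172-3p, -1.16 for bta-miR-10174-5p, -0.56 for bta-miR-10225a and -0.78 for the arm difference of bta-miR-10174. The cause was not tested. Arm counts from the same precursor entry were not run, since the entries are not linked across arms. No paired analysis was possible because the groups share no heifer number. The 58 names that were counted but not tested are given by their counts alone.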
